A study of Homo sapiens with 18 samples.

Results

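The genes described here are 10 heat shock genes, listed by name: HSPA1A, HSPA1B, HSPA8, HSPH1, DNAJB1, HSPB1, HSP90AA1, HSP90AB1, HSPD1 and HSPE1. They are 10 of 61487 genes counted in 18 libraries of NCI-H1975, an established human lung adenocarcinoma cell line. HSPA1A and HSPA1B have nearly the same coding sequence and share reads, so their counts were summed, which leaves 9 rows. Each of 6 groups had 3 libraries. The groups were poly(A)-selected mRNA and ribosome footprints, the stretches of mRNA that ribosomes shield from nuclease, of cells labelled Scramble, sgControl and sgDAMP. sgControl cells were the CRISPR control, and sgDAMP cells carried a knockout of DAMP, a peptide encoded by the long non-coding RNA DSP-AS1. Cells for footprints were harvested after cycloheximide at 100 µg per ml. The Scramble libraries served a search for long non-coding RNAs that are translated, and the sgControl and sgDAMP libraries ask which mRNAs change in translation without DAMP. No time or age is labelled, and whether the sgDAMP cells are 1 clone or a pool is not given in the sources used here.

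Heat shock proteins are molecular chaperones, which bind unfolded or partly folded proteins and help them reach or regain their shape. HSP70 proteins (HSPA1A, HSPA1B and HSPA8) take up client proteins with the help of J-domain cochaperones such as DNAJB1 and release them with the help of HSP110 proteins such as HSPH1. Some clients, kinases among them, pass on to the HSP90 proteins HSP90AA1 and HSP90AB1, and mutant EGFR, the driver of many lung adenocarcinomas, is a known HSP90 client. HSPD1 (HSP60) and HSPE1 (HSP10) form the folding chamber of mitochondria, and HSPB1 (HSP27) is a small heat shock protein that holds unfolded proteins in solution. Under stress the transcription factor HSF1 binds heat shock elements, repeats of the letters GAA in alternating orientation, and raises the inducible genes of the group.

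By Ensembl identifier and RefSeq position (GRCh38.p14), the HSP70 genes are HSPA1A (ENSG00000204389, chr6:31815543-31817942), HSPA1B (ENSG00000204388, chr6:31827738-31830254) and HSPA8 (ENSG00000109971, chr11:123057489-123062462). Their partners are HSPH1 (ENSG00000120694, chr13:31134973-31162388) and DNAJB1 (ENSG00000132002, chr19:14514769-14560391). HSPB1 is ENSG00000106211 (chr7:76302673-76304292). The HSP90 genes are HSP90AA1 (ENSG00000080824, chr14:102080742-102139749) and HSP90AB1 (ENSG00000096384, chr6:44246194-44253883). The chaperonin genes are HSPD1 (ENSG00000144381, chr2:197486584-197500274) and HSPE1 (ENSG00000115541, chr2:197500379-197503449). All are protein-coding. The span of DNAJB1 overlaps TECR and that of HSP90AA1 overlaps WDR20, and without a stated strand setting their counts are uncertain there. HSPE1 overlaps the readthrough gene HSPE1-MOB4, which had 0 counts in every library. Reads on exons shared by 2 genes can be set aside as ambiguous, so this 0 does not show that HSPE1 lost none. Ambiguous reads made up 13.68% to 14.7% of reads in sgControl and sgDAMP mRNA and 2.99% to 3.18% in their footprints. In Scramble mRNA they made up 3.13% to 3.21%. How many of them came from HSPE1 is not given.

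The promoters show where such letters lie, and the windows below are shown because they belong to an inducible pair (HSPA1A and HSPA1B), a constitutive HSP70 (HSPA8) and an inducible HSP90 (HSP90AA1) whose values are set side by side below. They are the 250 bases before an annotated transcript start in RefSeq (GRCh38.p14), written 5′ to 3′ on the gene's strand, with capitals for a pair of neighbouring units (GAANNTTC or TTCNNGAA, each of which reads the same kind of match on both strands). HSPA1A lies at chr6:31815293-31815542 on the plus strand, HSPA1B at chr6:31827488-31827737 on the plus strand, HSPA8 at chr11:123062137-123062386 on the minus strand and the second HSP90AA1 start at chr14:102087045-102087294 on the minus strand.
HSPA1A: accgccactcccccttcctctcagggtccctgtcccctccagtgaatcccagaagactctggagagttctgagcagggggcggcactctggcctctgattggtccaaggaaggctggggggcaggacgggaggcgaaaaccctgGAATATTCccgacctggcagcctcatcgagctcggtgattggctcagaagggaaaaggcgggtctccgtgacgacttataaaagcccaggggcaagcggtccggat
HSPA1B: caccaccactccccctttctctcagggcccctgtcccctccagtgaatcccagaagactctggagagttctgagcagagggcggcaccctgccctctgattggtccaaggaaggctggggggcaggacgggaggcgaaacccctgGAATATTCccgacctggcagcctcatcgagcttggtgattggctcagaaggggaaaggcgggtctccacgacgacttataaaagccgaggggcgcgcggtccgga
HSPA8: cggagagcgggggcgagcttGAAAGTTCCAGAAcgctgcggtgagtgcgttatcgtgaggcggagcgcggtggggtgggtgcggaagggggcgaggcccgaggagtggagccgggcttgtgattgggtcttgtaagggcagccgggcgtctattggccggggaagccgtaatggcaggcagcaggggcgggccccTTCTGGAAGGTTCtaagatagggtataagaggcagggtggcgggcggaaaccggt
HSP90AA1: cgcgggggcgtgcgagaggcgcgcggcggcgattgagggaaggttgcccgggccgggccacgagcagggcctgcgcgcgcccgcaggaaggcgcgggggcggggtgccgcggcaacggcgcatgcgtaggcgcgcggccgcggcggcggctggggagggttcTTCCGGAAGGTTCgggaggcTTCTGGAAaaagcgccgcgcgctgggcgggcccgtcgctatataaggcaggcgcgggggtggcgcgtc

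The HSPA1A and HSPA1B windows were 93.6% identical (235 of 251 aligned columns), and each held 1 pair, at -106 to -99 and -105 to -98 from the start. HSPA8 held 4 overlapping pairs that formed 2 runs of 3 units (GAANNTTCNNGAA or TTCNNGAANNTTC), at -230 to -218 and -55 to -43. HSP90AA1 held 3 pairs and 1 run of 3 units, at -88 to -76 of its second start, and none before its other start. Over all 10 genes and their 16 windows, 8 genes held a pair in at least 1 window, against 13.96% of 27305 genes with a window of this length. HSPA8, HSP90AA1, HSP90AB1 and HSPD1, 4 genes in all, held a run of 3 units, against 0.557% of those genes. By window, 8 of 16 held a pair, against 11.58% of 35116 windows. The near-identical windows of HSPA1A and HSPA1B are counted separately here. No pair lay in the windows of HSPH1 and HSPE1, which says only that these letters are not in these 250 bases. HSPD1 and HSPE1 are a head-to-head gene pair on chromosome 2, and the HSPD1 matches lay before the second of its 2 annotated starts. The HSP90AB1 matches lay only before the third of its 3 starts, and those of DNAJB1 only before the second of 3. A match is a description of letters and not a measured binding site.

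**Figure D1:**
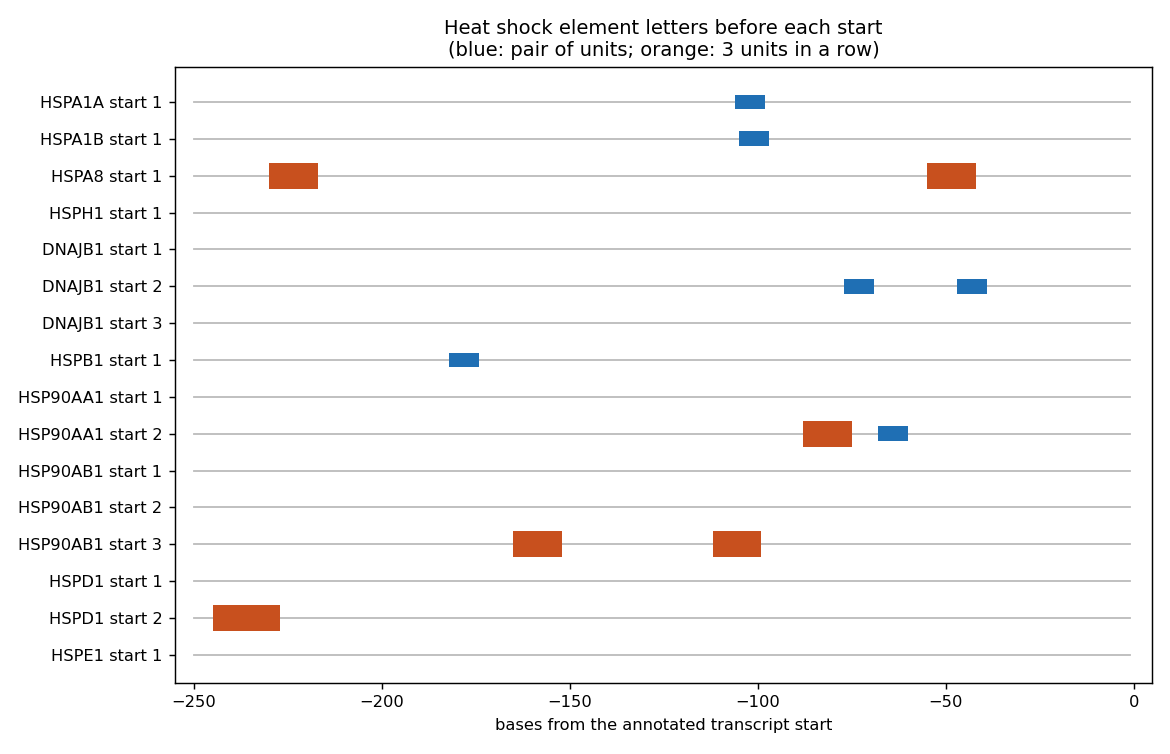
Positions of heat shock element letters in the 250 bases before each annotated start (horizontal axis, bases from the start) for the 16 windows of the 10 genes. Blue bars are pairs of units and orange bars runs of 3 units, which lie in windows of HSPA8, HSP90AA1, HSP90AB1 and HSPD1.

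Depth differed by assay and set. Scramble mRNA libraries held between 10859527 and 12424884 gene counts, and the sgControl and sgDAMP mRNA libraries between 17098397 and 17464782. The sgControl footprint libraries held between 6845899 and 7840852 and the sgDAMP footprint libraries between 6207783 and 6864945. Scramble footprints held 1035159 to 1302852 gene counts, of which 6.38% to 20.21% fell on protein-coding genes, against 76.45% to 79.45% in the other footprint libraries. Levels below are therefore counts per 1000000 protein-coding counts of the library (CPM), and they are compared between libraries and not between genes. Within sgControl and within sgDAMP, the 3 footprint libraries agreed within sampling noise for most genes. Of 12195 and 12454 genes, 46 and 13 varied beyond it. Chi-square per degree of freedom, averaged without the most variable genes, was 0.887 and 0.91, unlike the mRNA libraries (37.9 and 61.3). Some heat shock genes exceeded this footprint average among the sgDAMP footprint libraries (HSP90AB1 10.3, DNAJB1 4.93, HSPE1 4.26 and HSP90AA1 3.81), and their counting intervals are too narrow. Each of those footprint groups was therefore summed and counted as 1 sample, so that its comparison has a counting interval and no test. The footprints of DSP-AS1 checked the label: 567 counts in sgControl and 2 in sgDAMP, with mRNA at 18.8 ± 1.16 CPM and 19.8 ± 0.464 CPM (SD, n = 3). Of 10 epithelial and lung adenocarcinoma markers, KRT8 and KRT18 had over 100 counts in every library, while SFTPB, NKX2-1 and NAPSA (at most 24 counts) were at or near 0. KRT19 (2 to 18 counts per mRNA library) and EPCAM (0 to 15) were also low, and MUC1 had 0 counts in the sgControl footprints. In each mRNA group 5 of the 10 markers had at least 10 counts in every library. Of the markers of other cell types, PTPRC and CD3E (immune cells) were at 0 in all 18 libraries, while COL1A1, a collagen gene of fibroblasts, had 52 to 185 counts per mRNA library. Its footprints went from 30 in sgControl to 120 in sgDAMP, 3.89-fold higher (2.59 to 6.01), and its part in the heat shock values was not tested.

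**Figure D2:**
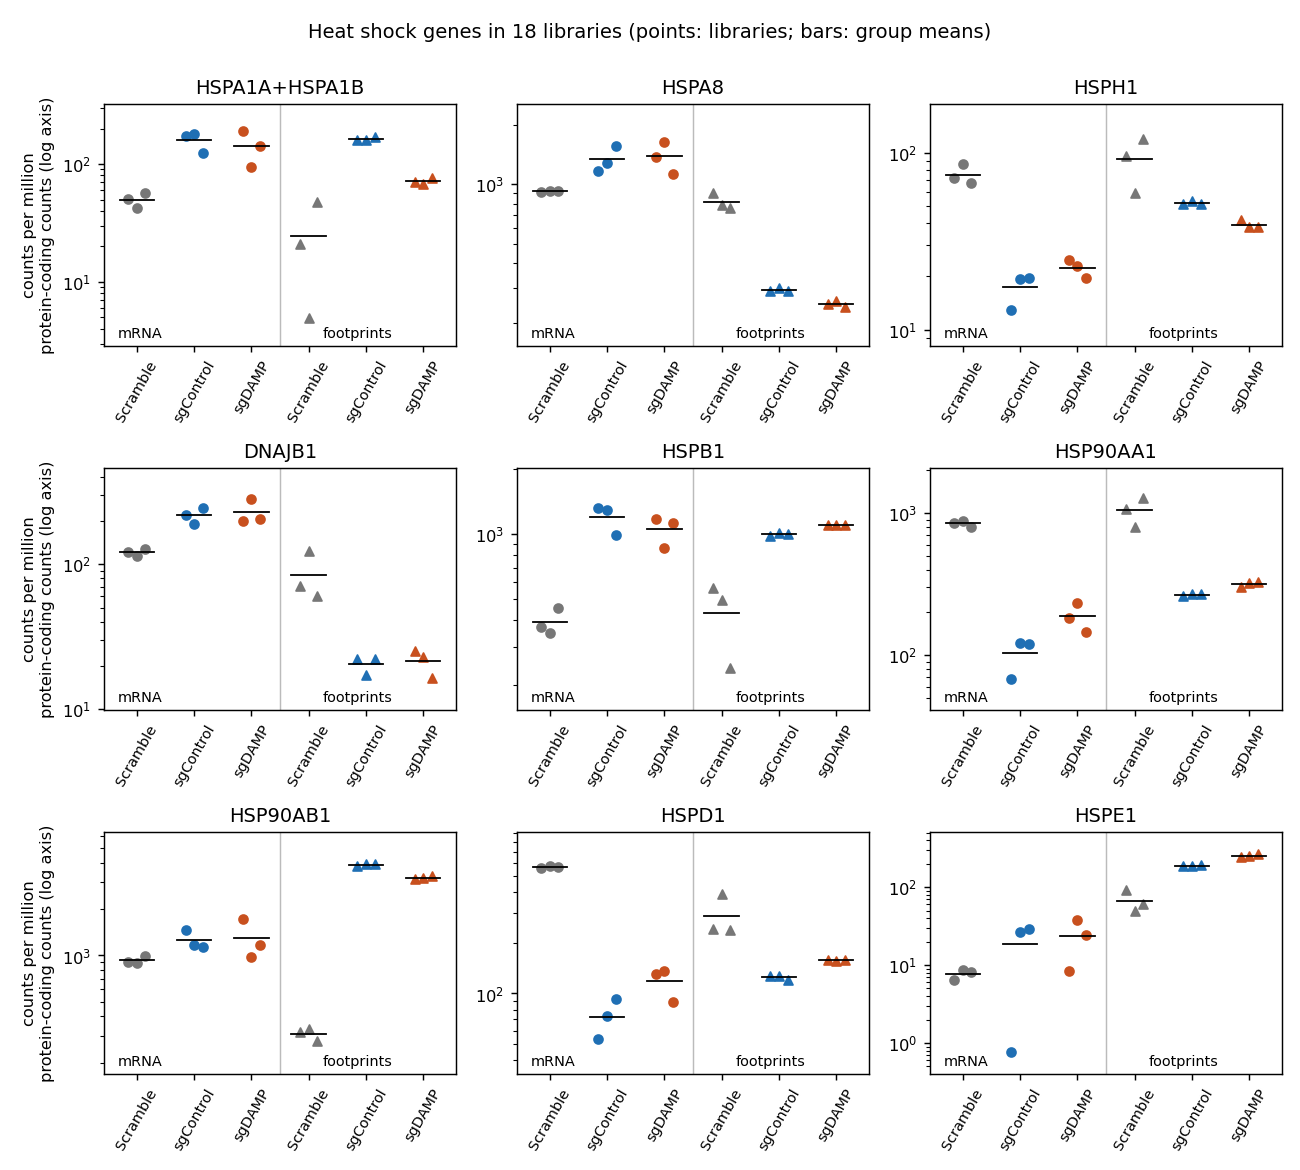
Level of each heat shock gene in every library (vertical axes, CPM over protein-coding counts, log scale); circles are mRNA, triangles are footprints, and bars are group means. The 3 sgDAMP footprint libraries of HSPA1A+HSPA1B lie between 67.7 and 76.5, below the sgControl range of 159.8 to 170.8, while the mRNA ranges overlap.

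In sgDAMP cells the inducible HSP70 genes had fewer ribosome footprints than in sgControl cells, at overlapping mRNA levels. Each footprint group is 1 summed sample without a test. The change of footprints relative to mRNA, -1.11 on the log2 scale, did not pass. HSPA1A and HSPA1B together stood at 159.8, 161.4 and 170.8 footprint CPM in the 3 sgControl libraries and at 70.8, 67.7 and 76.5 in the 3 sgDAMP libraries. All sgDAMP libraries lay below all sgControl libraries. Footprint groups without overlap are common here, since the libraries of a group differ by little more than counting: as CPM, 8 of 9 rows had them (4 lower and 4 higher in sgDAMP), as did 67.4% of all genes (13.2% lower and 54.2% higher). After TMM scaling it was 7 of 9 (5 lower and 2 higher) beside 60.8% of genes. In bulk libraries a lower level in every cell and fewer cells at a high level cannot be told apart. In summed counts, 2922 sgControl footprints stood against 1093 in sgDAMP, which after scaling is 2.75-fold lower (95% counting interval 2.56 to 2.95), a log2 change of -1.46. HSPA1A taken alone was 2.76-fold lower and HSPA1B taken alone 2.75-fold lower. The 2 genes share reads, so these are not 2 independent values. How multiply aligned reads were handled is not given. The sum may leave shared reads out or count them more than once, which the counting interval does not cover. The mRNA of the pair stood at 173.2, 181 and 125.3 CPM in sgControl and at 190.7, 93.9 and 142.5 CPM in sgDAMP. These ranges overlap, and the log2 change of mRNA was -0.34 (SE 0.31, edgeR adjusted p = 0.862).

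HSPH1, the HSP110 partner that lets HSP70 exchange its nucleotide, was the other member whose footprints passed 1.5-fold. It stood at 51.7, 53.3 and 51.5 footprint CPM in sgControl and at 41.7, 38.0 and 38.0 in sgDAMP. Its summed counts went from 929 to 597, 1.6-fold lower after scaling (1.44 to 1.78). HSPH1 mRNA stood at 13.0, 19.5 and 19.7 CPM in sgControl and at 24.7, 22.8 and 19.7 in sgDAMP, with a log2 change of 0.22 (SE 0.28, edgeR adjusted p = 0.876). With total-count scaling the log2 footprint change of HSPH1 was -0.46, under 1.5-fold, and that of the HSPA1 pair was -1.24.

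So 2 of 9 rows passed 1.5-fold in footprints, both lower, where 25% of 12508 genes passed it, 10.8% lower and 14.2% higher. A share of 2 in 9 is near that background. With the 3 libraries of a group entered as replicates edgeR called 6 of 9 rows beside 55.6% of genes. The median log2 change of the 9 rows was -0.20 against 0.01 over all genes. In mRNA, 0 of 9 rows passed the edgeR test, as did 0% of 14031 genes (741 genes had an unadjusted p under 0.05, and DESeq2 called 21 genes and limma-voom 0). Total-count scaling moved the median gene from 0.01 to 0.22 in footprints and from 0.03 to 0.17 in mRNA, and the changes given here are relative to the TMM zero point.

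**Figure D3:**
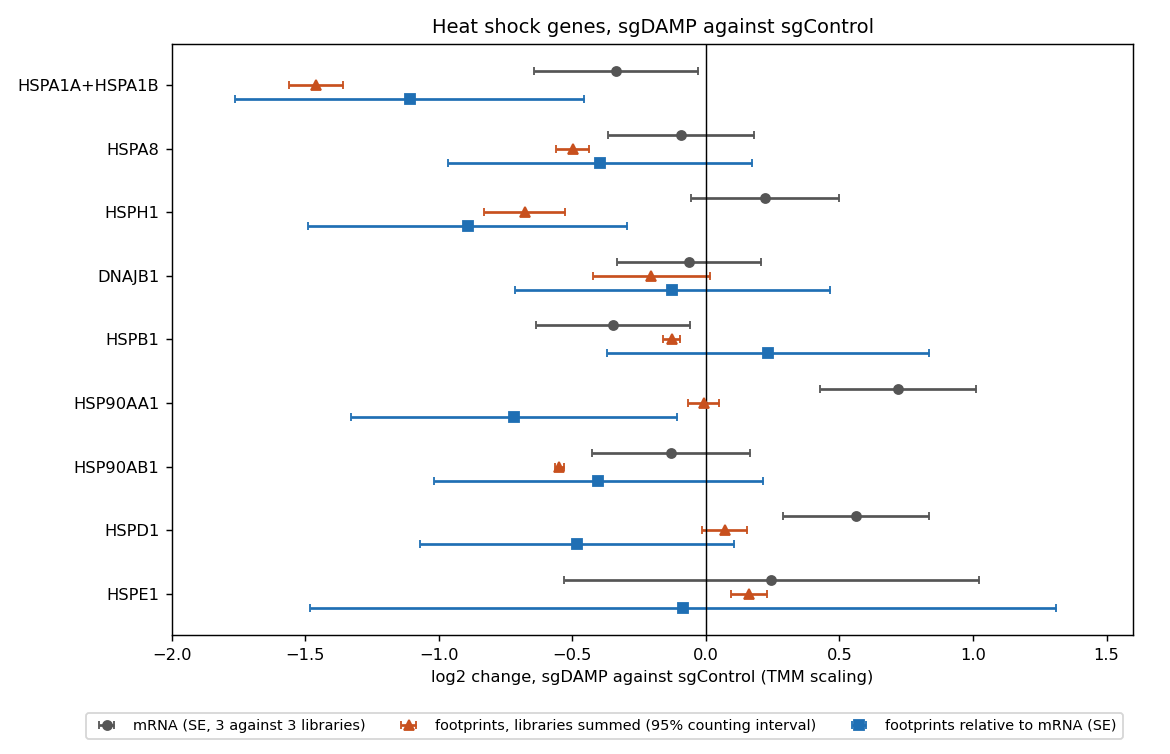
Change of each heat shock gene in sgDAMP against sgControl (horizontal axis, log2) in mRNA (circles, SE over 3 against 3 libraries), in summed footprints (triangles, 95% counting interval) and in footprints relative to mRNA (squares, SE). HSPA1A+HSPA1B lies lowest in footprints, at -1.46, and HSP90AA1 and HSPD1 lie to the right in mRNA only, at 0.72 and 0.56.

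The constitutive HSP70 and the J-domain partner did not pass in either assay. HSPA8, the HSP70 that cells make without stress, stood at 287.9, 298.3 and 290.2 footprint CPM in sgControl and at 248.2, 256.5 and 240.7 in sgDAMP. The ratio was 1.41-fold lower (1.35 to 1.48), short of 1.5-fold. HSPA8 mRNA overlapped between the groups (1134 to 1645 CPM in sgDAMP, 1167 to 1564 in sgControl), with a log2 change of -0.09 (SE 0.27). DNAJB1, which loads clients onto HSP70, gave 365 and 326 footprints in all, a log2 change of -0.20 whose counting interval includes no change. Its mRNA changed by -0.06 (SE 0.27).

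Neither HSP90 gene passed in mRNA or in footprints. HSP90AB1, the constitutive form, stood at 3836, 3940.0 and 3970.0 footprint CPM in sgControl and at 3136, 3215 and 3292 in sgDAMP. Every sgDAMP library was lower, by 1.46-fold after scaling (1.45 to 1.48). Its mRNA ranged from 1137 to 1467 CPM in sgControl and from 978 to 1741 in sgDAMP, with a log2 change of -0.13 (SE 0.30). HSP90AA1, the stress-inducible form, stood at 262.4, 267.4 and 267.3 footprint CPM in sgControl and at 299.4, 323.9 and 327.9 in sgDAMP. As CPM the sgDAMP libraries were higher, while its summed counts of 4732 and 4842 gave, after TMM scaling, a log2 footprint change of -0.01, which was 0.21 with total-count scaling. Its mRNA stood at 68.2, 121.7 and 119.9 CPM in sgControl and at 181.7, 232.9 and 146.4 in sgDAMP. All 3 sgDAMP libraries lay above all 3 sgControl libraries, with a log2 change of 0.72 (SE 0.29) that did not pass (unadjusted p = 0.0276, edgeR adjusted p = 0.862).

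In the mitochondrial chaperonin, HSPD1 mRNA stood at 53.6, 72.9 and 92.1 CPM in sgControl and at 131.1, 136.1 and 88.6 in sgDAMP. The log2 change was 0.56 (SE 0.27, edgeR adjusted p = 0.862), and the groups overlapped as CPM but not after TMM scaling. On that scale 2 of 9 rows, HSP90AA1 and HSPD1, had mRNA groups without overlap, as did 11.5% of all genes tested. HSPD1 footprints stood at 127.6, 126.6 and 120.6 CPM in sgControl and at 159.3, 155.6 and 157.8 in sgDAMP, 2222 and 2401 in sum, a log2 change of 0.07 after TMM scaling. HSPE1, the lid of the chamber, stood at 183.9, 187 and 192.1 footprint CPM in sgControl and at 240.2, 247.8 and 267.9 in sgDAMP, 3343 and 3847 in sum, a log2 change of 0.16. For both genes every sgDAMP footprint library was higher, short of 1.5-fold. HSPE1 mRNA was the most uneven of the 9 rows within a group: 0.774, 26.5 and 29.2 CPM in sgControl and 8.37, 37.8 and 24.3 in sgDAMP. The low values were the library numbered 1 of each group, and the log2 change of 0.24 (SE 0.78) became -0.32 without sgControl replicate 1 and -0.25 without sgDAMP replicate 2.

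HSPB1, the small heat shock protein, stood at 980.7, 1015 and 1000.0 footprint CPM in sgControl and at 1099, 1099 and 1097 in sgDAMP. As CPM every sgDAMP library was higher, yet after TMM scaling the log2 change was -0.13, and with total-count scaling it was 0.09. Its direction therefore depends on the scaling, as do those of DNAJB1 (-0.20 and 0.01) and HSP90AA1. HSPB1 mRNA stood at 1320.0, 1299 and 994.5 CPM in sgControl and at 1176, 867.5 and 1122 in sgDAMP, a log2 change of -0.35 (SE 0.29, edgeR adjusted p = 0.862).

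The mRNA libraries differed along an axis on which the libraries of both groups were spread. How closely genes at large followed it was not computed, so the values below do not set the heat shock genes apart. The leading principal component of the 6 sgControl and sgDAMP mRNA libraries, computed without these genes, held 55.7% of the variance. Its scores were 69.9, 22.2 and -31.3 in sgControl and 11.1, -66.5 and -5.3 in sgDAMP. Over these 6 libraries the HSPA1 pair, HSP90AB1 and HSPB1 followed the axis (Pearson r of 0.937, 0.924 and 0.923). HSPD1 (-0.829), HSP90AA1 (-0.819), HSPE1 (-0.816) and HSPH1 (-0.71) ran against it, and HSPA8 (-0.58) and DNAJB1 (-0.354) less closely. The part of this axis in the mRNA differences was not tested. The genes whose mRNA was most like that of the HSPA1 pair, among 3949 coding genes, were NTRK3 (r = 0.999), RIN3 (0.999) and OGDH (0.998). For HSP90AA1 they were HSP90B1, its paralog in the endoplasmic reticulum (0.968), LONP2 (0.964) and ALDH1A1 (0.961). For HSPB1 they were TMEM222 (0.997), MTX1 (0.996) and RUVBL2 (0.996), for HSPD1 TFRC (0.998), UGDH (0.989) and SCRN1 (0.983), and for HSPA8 SRSF7 (0.976), ACOT9 (0.962) and SAT1 (0.953). These are descriptions over 6 libraries that share the axis and the depth.

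Whether footprints changed beyond mRNA was tested as the interaction of assay and condition. For the HSPA1 pair, footprints relative to mRNA were 2.16-fold lower in sgDAMP, a log2 change of -1.11 (SE 0.65, edgeR adjusted p = 1). HSPH1 followed at -0.89 (SE 0.60) and HSP90AA1 at -0.72 (SE 0.61). HSPD1, HSP90AB1, HSPA8, DNAJB1 and HSPE1 ran from -0.48 to -0.09, and HSPB1 was at 0.23. Of the 9 rows, 0 passed, where 0.258% of 19356 genes did (0.031% higher and 0.227% lower; 1059 genes had an unadjusted p under 0.05, among them none of the 9, and DESeq2 called 53 genes). The footprints of a group enter this fit once, so the SE rests on the spread of the mRNA libraries. With the footprint libraries entered as 3 replicates, the value of the HSPA1 pair was the same and its edgeR adjusted p was 0.0915.

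The wider chaperone network was read from 7 lists of 71 other genes. In mRNA 0 of 65 tested genes passed, and 0 of 65 in footprints relative to mRNA. In footprints 10 of 60 passed 1.5-fold, 6 higher and 4 lower, or 16.7% beside 25% of all genes. Lower were STIP1, which hands clients from HSP70 to HSP90 (23006 to 15659 footprints, 1.51-fold, 1.48 to 1.54), BAG3, an HSP70 cochaperone induced by stress (3460 to 2242, 1.59-fold, 1.51 to 1.68), the HSP90 cochaperone TTC4 (140 to 89, 1.62-fold, 1.23 to 2.14) and HSPA1L (59 to 31, 1.96-fold, 1.25 to 3.13). Higher were HSPA4L, an HSP110 relative of HSPH1 (2148 to 3639, 1.65-fold, 1.56 to 1.74), and CDC37, which brings kinases to HSP90 (371 to 586, 1.53-fold, 1.34 to 1.75). FKBP5 (1.75-fold, 1.26 to 2.44), HSPA12A (1.98-fold, 1.44 to 2.75) and DNAJB5 (2.11-fold, 1.58 to 2.82) were also higher, each with 156 or fewer footprints in a group. DNAJB14 passed at 1.59-fold on 25 and 41 footprints, with an interval of 0.946 to 2.74 that includes no change. None of the 8 subunits of TRiC, the cytosolic chaperonin, passed. HSF1, the stress transcription factor, had 1229 and 1115 footprints, a log2 change of -0.18, and mRNA of 288 ± 61.7 and 260 ± 80.8 CPM (SD, n = 3). EGFR, 1 of the 10 epithelial markers, had 47501 to 63989 footprints per library in sgControl and 2914 to 3216 in sgDAMP. The shallower Scramble footprint libraries held 8 to 35. EGFR mRNA had 972 to 1306 counts per library in sgControl and 809 to 1731 in sgDAMP, a log2 change of -0.17 (SE 0.30). The EGFR footprint ratio was 18.6-fold lower in sgDAMP. With it the summed level of the 10 markers went from between 10740 and 12310 footprint CPM in sgControl to between 3045 and 3072 in sgDAMP. Of the other 5 tested markers, KRT19 was 2.73-fold higher (59 to 166 footprints), and KRT8 (1.32-fold), CDH1 (1.09-fold), EPCAM (0.984-fold) and KRT18 (0.971-fold) stayed under 1.5-fold. The part of EGFR and KRT19 in the heat shock values was not tested.

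**Figure D4:**
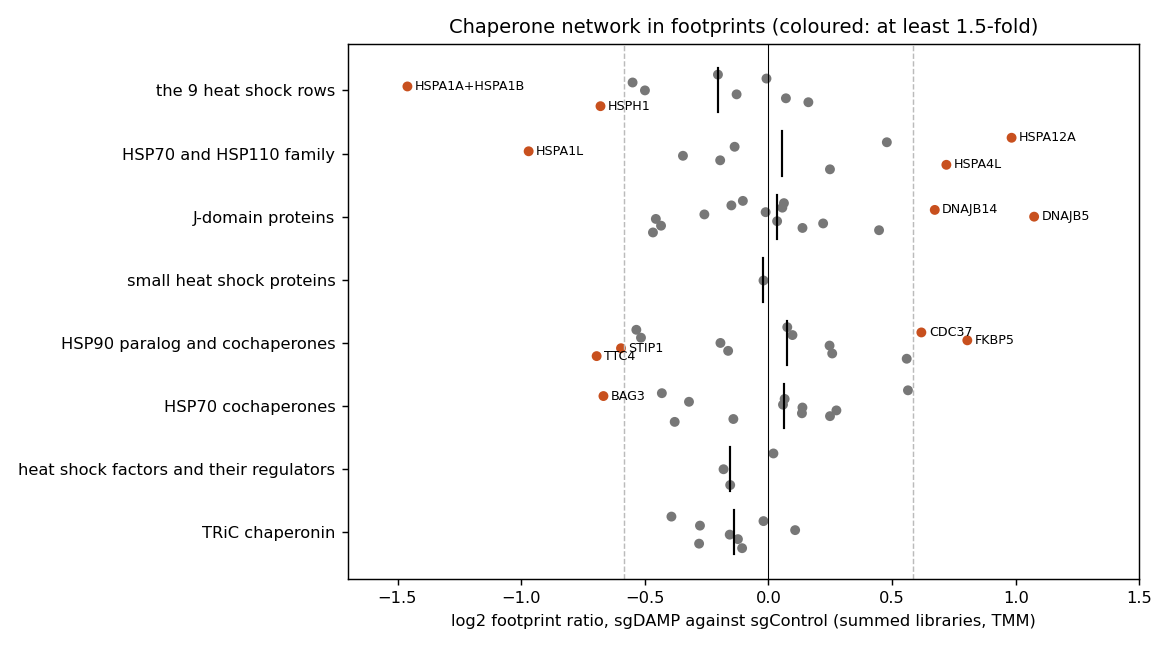
Footprint ratio of sgDAMP to sgControl (horizontal axis, log2, summed libraries) for the 9 heat shock rows and for the genes of 7 other chaperone lists, with list medians as bars. Coloured genes lie at least 1.5-fold from 0 (dashed lines): HSPA1A+HSPA1B and HSPH1 on the lower side among the 9 rows, and 6 higher and 4 lower among the 60 others.

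Footprints were also set against mRNA within each condition, on 1 scale over both assays, a measure of how many footprints an mRNA carried for its abundance. In sgControl and sgDAMP the footprints of a group are 1 summed sample, so the SE and p come from the spread of the mRNA libraries and assume that footprints vary like them. In sgControl cells 7 of 9 rows passed, 5 higher and 2 lower, where 69.7% of 19356 genes passed (39.3% higher and 30.4% lower). HSPE1 was higher by 3.65 on the log2 scale (SE 0.93, edgeR adjusted p = 0.00264), HSP90AB1 by 1.91, HSPH1 by 1.88, HSP90AA1 by 1.66 and HSPD1 by 1.08. DNAJB1 was at -3.12 (SE 0.50, edgeR adjusted p = 4.91e-05) and HSPA8 at -1.90. Footprints cover the coding sequence and mRNA reads the whole transcript, so these ratios do not rank genes by translation. Their spread over all genes tested was wide: HSPE1 lay at percentile 74.9 and DNAJB1 at percentile 22, with the median gene at 0.19. The HSPA1 pair, at 0.31, and HSPB1, at 0.00, did not pass. In sgDAMP cells 5 of 9 passed, 3 higher (HSPE1 at 3.53, HSP90AB1 at 1.46, HSPH1 at 0.94) and 2 lower (DNAJB1 at -3.29, HSPA8 at -2.34), where 67.9% of genes passed (38.3% higher and 29.5% lower). The call of HSPH1 there was lost in 6 of 12 fits without 1 library, those without any 1 sgDAMP footprint library among them (edgeR adjusted p of 0.0585 to 0.121). It was also lost with total-count and upper-quartile scaling (0.49 and 0.53 on the log2 scale) and with no count filter. The call of HSPD1 in sgControl was lost without sgControl mRNA replicate 1 or 2 (0.0784 and 0.0705) and with total-count and upper-quartile scaling (0.51 and 0.65 on the log2 scale). The calls of HSPE1 were lost with limma-voom (adjusted p of 0.056 in sgControl and 0.0979 in sgDAMP), and that in sgDAMP also with DESeq2 (0.0537). The HSPA1 pair was at -0.85 in sgDAMP (SE 0.47, edgeR adjusted p = 0.121) and HSP90AA1 at 0.90 (0.063). Without sgDAMP mRNA replicate 2 both passed (0.0476 and 0.0167). The pair also passed with total-count and upper-quartile scaling (-1.30 and -1.26 on the log2 scale), and HSP90AA1 without sgControl mRNA replicate 3 (0.0428), with DESeq2 (0.0454) and with its size factors (0.0472). With the footprint libraries entered as 3 replicates the HSPA1 pair and HSP90AA1 passed in sgDAMP as well, with or without a replicate block. Reads of HSPA8, HSPD1 and HSPE1 can be shared with 20, 22 and 28 named pseudogenes, and those of HSPA1A and HSPA1B with each other. Reads listed as multiply aligned made up 23.59% to 25.23% of reads in sgControl and sgDAMP footprints and 4.74% to 5.32% in their mRNA. Whether they also entered gene counts is not given in the sources used here. The part of these reads in the ratios, and that of ambiguous reads for HSPE1, was not tested.

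**Figure D5:**
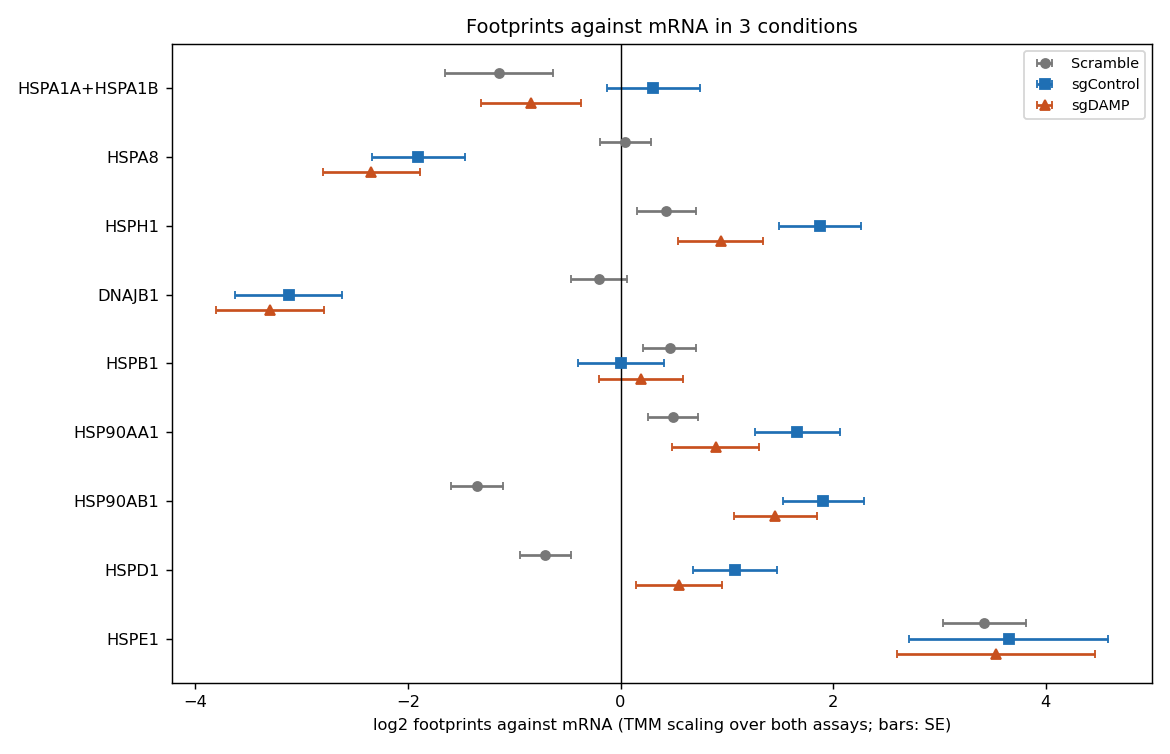
Footprints against mRNA (horizontal axis, log2, with SE bars) for the 9 heat shock rows in Scramble (circles), sgControl (squares) and sgDAMP (triangles). HSP90AB1 lies at -1.35 in Scramble and at 1.91 and 1.46 in sgControl and sgDAMP, whereas HSPE1 lies above 3 in all 3 conditions. Among all genes tested, HSPE1 was at percentile 96.4 in Scramble, 74.9 in sgControl and 76.1 in sgDAMP.

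In Scramble cells 3 of 9 rows passed, HSPE1 higher at 3.42 and HSP90AB1 (-1.35) and HSPD1 (-0.71) lower, where 44.5% of 14431 genes passed (17.1% higher and 27.4% lower) and the median gene was at -0.68. HSPA8 was at 0.05, DNAJB1 at -0.20, HSPB1 at 0.46 and HSP90AA1 at 0.49, and none passed. The HSPA1 pair, at -1.14 (edgeR adjusted p = 0.0665), did not pass either. The pair passed with total-count scaling, no count filter, DESeq2, protein-coding genes alone and without footprint replicate 3. HSP90AA1 also passed with DESeq2 and without footprint replicate 3. The Scramble footprints of these genes were few: 10 for the HSPA1 pair, 37 for HSPE1, 45 for HSPH1 and 47 for DNAJB1 in 3 libraries together, and 525 for HSP90AA1, the most. The call of HSPD1 was lost without any 1 of the mRNA libraries or without footprint replicate 1 (edgeR adjusted p of 0.0648 to 0.167), with limma-voom (0.0611) and with upper-quartile scaling (0.0521). Under that scaling HSP90AA1 passed (0.60 on the log2 scale), so that 2 rows were higher and 1 lower. HSPH1, at 0.43 (0.203), passed without mRNA replicate 2 (0.0478). Without Scramble footprint replicate 3, the shallowest in coding counts, 6 of 9 passed, and with total-count scaling 8 of 9, all lower.

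The 2 control sets also differed in mRNA. Against Scramble, sgControl cells had higher HSPA1 pair (2.58), HSPB1 (2.52), HSPE1 (2.14), DNAJB1 (1.73), HSPA8 (1.42) and HSP90AB1 (1.34) on the log2 scale. They had lower HSP90AA1 (-2.15), HSPD1 (-2.08) and HSPH1 (-1.23). All 9 rows passed the edgeR test, where 79.6% of 16359 genes did (33.4% higher and 46.1% lower). In CPM the HSPA1 pair went from 42.4 to 56.6 in Scramble to 125.3 to 181 in sgControl, and HSP90AA1 from 804.3 to 883.7 down to 68.2 to 121.7, both without overlap. HSPE1 stood at 6.465, 8.59 and 8.03 CPM in Scramble and at 0.774, 26.5 and 29.2 in sgControl. Its groups overlapped, with sgControl library 1 below every Scramble library. The call of HSPE1 was lost without any 1 Scramble library or without sgControl replicate 2. It was also lost with total-count scaling (1.34 on the log2 scale), at least 10 counts in every library, DESeq2, limma-voom and a replicate block, where 8 of 9 passed each time. In Scramble mRNA 42.51% to 43.2% of reads fell on no annotated feature, against 1.15% to 1.43% in sgControl mRNA. Ambiguous reads made up 3.13% to 3.21% in Scramble mRNA and 13.68% to 14.3% in sgControl mRNA. The part of these shares in the HSPE1 difference was not tested. The set and the condition cannot be told apart.

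The share of HSPA1A in its pair was lower in footprints than in mRNA in every sgControl and sgDAMP library. HSPA1A took 64.6% to 66.7% of the pair's mRNA counts in sgControl and 59.4% to 63.6% in sgDAMP, but 46.4% to 47.0% and 45.2% to 48.2% of its footprints. Since the genes share reads, their separate levels are uncertain. Together, the 10 genes took 0.591% to 0.608% of coding footprints in sgControl and 0.532% to 0.551% in sgDAMP, and 0.433% to 0.448% and 0.405% to 0.502% of coding mRNA counts, where the groups overlapped. HSP90AB1 gave most of those footprints, 69749 in sgControl and 49040 in sgDAMP.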

How the data were processed

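Poly(A)-selected mRNA and ribosome footprints were sequenced in 18 libraries. The authors' deposited values are raw read counts per gene in the form HTSeq writes, and the submitters' processing notes name Trimmomatic 0.30, HISAT2 2.1.0, SAMtools 1.10, HTSeq 0.11.2, edgeR and GRCh38. For the strand setting the sources used here give nothing, and for multiply aligned reads they give a closing line but not the setting. The 5 closing lines on unassigned reads stayed out of all totals; they held 22.24% to 24.24% of reads in sgControl and sgDAMP mRNA, 65.81% to 69.98% in their footprints, 54.04% to 54.35% in Scramble mRNA and 95.65% to 95.82% in Scramble footprints. Positions and promoters came from RefSeq GRCh38.p14.

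Genes were filtered with filterByExpr (minimum count 10), scaled by TMM and tested two-sided with edgeR 4.0.16 (quasi-likelihood F test, R 4.3.3), calling genes whose p, adjusted over all genes by Benjamini and Hochberg, was under 0.05. Libraries of a group were compared with Poisson noise over genes with at least 30 summed counts. sgControl and sgDAMP footprints were summed per group and compared as ratios with exact Clopper-Pearson 95% intervals, which cover counting error only, and called at 1.5-fold. Nothing labels the libraries as separate cultures, so p-values measure only the spread between them. DESeq2 1.42.0 and limma 3.58.1 were alternatives. The edgeR script was tested on simulated data. Members and lists were chosen with earlier results of these data known. All members are named; in the other lists, HSF1 and the called genes. The rule for called genes (up to 3 a list, by p) could not rank footprint ratios, which have no p, so all 10 past 1.5-fold are named.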

Additional observations from a re-analysis of the deposited data

Results flagged for a closer look

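The ratio of footprints to mRNA differed between the Scramble and sgControl cells for 7 of 9 heat shock rows, by an edgeR interaction test chosen after seeing the data, where 37.9% of 20581 genes did. The log2 difference, sgControl minus Scramble, was 3.50 for HSP90AB1 (SE 0.41, edgeR adjusted p = 1.25e-06) and -2.67 for DNAJB1 (SE 0.50, adjusted p = 0.00022). It was 2.02 for HSPD1, -1.71 for HSPA8, 1.68 for HSPH1, 1.41 for HSP90AA1 and 1.67 for the HSPA1 pair, which rests on 10 Scramble footprints. The sgControl footprints entered this test as 1 summed sample. HSPB1 (-0.20) and HSPE1 (0.47, SE 1.14) did not pass. The sets also differed in depth and in the share of reads assigned to genes, and the part of these in the differences was not tested. The interaction was fitted with TMM scaling alone, and the ratios within each set move with the scaling. With total-count scaling HSPA8 was at -2.73 in Scramble and -2.47 in sgControl, against 0.05 and -1.90 with TMM. DNAJB1 was at -3.01 and -3.68, against -0.20 and -3.12. HSP90AB1 was at -4.14 and 1.36, against -1.35 and 1.91.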

How the results depend on the processing

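Over the alternatives to the 7 member counts, 123 counts stayed within 1.5 times the value given and 7 did not. Of the log2 values of single genes, 1051 kept their direction and call, 30 gained a call, 33 lost one and 46 changed sign. In footprints of sgDAMP against sgControl, 1 of 9 passed with total-count scaling, and 6 of 9 with the 3 libraries as edgeR replicates, with or without a replicate block (55.6% of all genes). In Scramble footprints against mRNA, 3 of 9 became 8 with total-count scaling, 5 of 6 tested with at least 10 counts in every library, and 5 with the DESeq2 Wald test. Leaving out 1 library gave 2 to 6 there, 6 to 7 in sgControl, 4 to 7 in sgDAMP, 8 to 9 for sgControl against Scramble mRNA, 2 in footprints, and 0 in mRNA and in footprints relative to mRNA.

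Signs that changed belong to values that had not passed. In sgDAMP against sgControl mRNA, total-count scaling gave 0.042 for HSPA8, 0.066 for DNAJB1 and 0.031 for HSP90AB1, and upper-quartile scaling gave 0.0093 for HSPA8 and 0.039 for DNAJB1. In footprints, which have no test, total-count scaling gave 0.014 for DNAJB1, 0.089 for HSPB1 and 0.21 for HSP90AA1, which was also above 0 with upper-quartile scaling (0.058) and without sgDAMP replicate 1 (0.025). In mRNA, leaving out 1 library gave -0.25 to 0.052 for DNAJB1, -0.34 to 0.039 for HSP90AB1 and -0.32 to 0.66 for HSPE1. In footprints relative to mRNA, HSPE1 was 0.062 with total-count scaling, and without 1 library DNAJB1 ran from -0.28 to 0.041 and HSPE1 from -0.51 to 0.48. In Scramble footprints against mRNA, total-count scaling gave -2.73 for HSPA8, -2.43 for HSPH1, -2.26 for HSPB1 and -2.36 for HSP90AA1. At least 10 counts in every library gave -0.94, -0.57, -0.51 and -0.50 for the same genes, and HSPA8 was -0.12 with no count filter and -0.053 in protein-coding genes alone. Without 1 library DNAJB1 ran from -0.71 to 0.023 and HSPA8 from -0.19 to 0.23. In sgControl footprints against mRNA, the HSPA1 pair was -0.24 with total-count and -0.12 with upper-quartile scaling. HSPB1 was -0.54 and -0.43 there, -0.21 with footprint libraries as 3 replicates, -0.20 with a replicate block added, and -0.13 to 0.13 without 1 library. In sgDAMP cells HSPB1 was -0.26 and -0.22 under those scalings. The cause was not tested, except that total-count scaling moves the zero point of every gene, by construction.

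Deviations of same-numbered sgControl and sgDAMP mRNA libraries had r of 0.372, -0.197 and -0.409. These values show no pairing by number, but with 3 libraries a group they cannot exclude one. With a replicate block the counts were 0 in mRNA, 3 in Scramble footprints against mRNA, and 8 for sgControl against Scramble mRNA. With footprint libraries entered as 3 replicates they were 0 in footprints relative to mRNA, 7 in sgControl and 7 in sgDAMP footprints against mRNA. Adding the block to those fits left these counts unchanged. Depth limits the Scramble footprints most, with 10 footprints of the HSPA1 pair.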
